A study of Mus musculus with 45 samples.

Results

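Transcripts of 10 genes that sit on the negative side of the circadian clock or directly downstream of it were measured in the liver, kidney and brain of mice on 5 diets. The genes are the Period genes Per1, Per2 and Per3, the PAR bZIP transcription factors Dbp, Tef and Hlf, the REV-ERB receptors Nr1d1 and Nr1d2, the repressor Ciart and the deubiquitinase Usp2. They were taken by name from a table of 22080 genes, and all 10 were present with 1 probe set each. Whole-transcript microarrays were hybridised with RNA of male C57BL/6 mice, which were 7 weeks old at the start and were killed on day 43 after several hours without food and water. All mice ate an AIN-93 diet. The Control group received nothing else, the high-cholesterol diet (HCD) group had 0.5% cholesterol added, the HCD+Sim group had cholesterol and 0.03 g per 100 g of simvastatin, an inhibitor of cholesterol synthesis, and the last pair of groups had cholesterol and 1% of a Ganoderma lucidum (reishi mushroom) extract, called Gl-1 in HCD+Gl-1 and Gl-2 in HCD+Gl-2. The Gl-2 extract came from mushrooms grown with acetylsalicylic acid and the Gl-1 extract from mushrooms grown without it. Each group of 8 mice gave 3 arrays per tissue, 45 arrays in all. Pools A and B held RNA of separate mice and pool C was a mix of both, which leaves 2 independent pools behind 3 arrays, and every p-value below measures the spread between arrays.

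The molecular clock is a loop of transcription in nearly every cell. BMAL1 (gene Arntl) pairs with CLOCK or NPAS2, binds E-box sequences and drives the Period genes, Ciart, the REV-ERB genes, the PAR bZIP genes and Usp2. PERIOD proteins work with cryptochromes to block BMAL1, CIART (also called CHRONO) does so by binding BMAL1, and REV-ERB receptors shut off transcription of Arntl itself. DBP, TEF and HLF carry time of day to metabolic genes through D-box sequences, and NFIL3 opposes them there. In liver the transcripts of most of these genes swing widely over a day and peak close to each other, while Arntl and Npas2 peak at the opposite time. Per1 and Per2 also respond within an hour to signals that act through CREB. The mice lived in a daily light and dark cycle, and the hour at which each group was killed is not given in the sources used here.

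The tissues matched their labels: all 18 liver, kidney and brain marker genes were higher on every array of their own tissue than on any other array. Array medians ran from 6.76 to 6.92 on the log2 scale, and arrays of a group correlated at r = 0.9846 to 0.9974 across genes. Some liver arrays stood apart. In liver Control, the mean of 4 squamous epithelium markers was 6.67 in pool A and 7.27 in pool B, against 5.93 in pool C and 5.66 to 5.97 on the other liver arrays. In liver HCD+Sim, the mean of 7 acinar pancreas markers was 7.51 in pool A and 8.2 in pool B, against 5.96 to 6.21 on the other liver arrays, and the mean of 6 skeletal muscle markers was 7.52 and 7.98 in the same pools and 6.94 to 7.21 in liver Control, against 6.29 to 6.75 on the other liver arrays. In liver HCD+Gl-2, the mean of 3 adrenal markers was 6.39 in pool A and 6.35 in pool C, against 6.05 in pool B and 5.8 to 6.16 on the other liver arrays. Of these 3, Cyp21a1 was higher in HCD+Gl-2 than in Control by 0.89 (adjusted p = 0.000275), whereas Star (0.16) and Cyp11b1 (-0.22) did not pass. Krt4 and Krt13 of the squamous list and Acta1 and Myh1 of 6 skeletal muscle markers were lower in liver HCD+Gl-2 than in Control, by log2 differences of -1.75, -1.13, -1.04 and -1.04. The part of these other cells in the results was not tested, and the liver results are given below also with pool C alone for Control and HCD+Sim, and with pool B alone for HCD+Gl-2, where the call of a member changes. In bulk RNA, fewer cells of a type and less RNA per cell cannot be told apart. The Ciart probe set has a further limit: its identifier falls among 10 neighbouring identifiers that all belong to genes of chromosome 10, while Ciart lies on chromosome 3. Whether this probe set reads Ciart was not tested, and every Ciart value below carries that limit. The identifiers around the other 9 members all belonged to the member's own chromosome.

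Reference promoters are shown for 4 members because the clock acts on these genes through short DNA motifs, and because these 4 hold an E-box or D-box in the 250 bases before the annotated start (RefSeq, build GRCm38.p6; 9 of the 10 members matched, all but Per2). Letters searched on both strands were CACGTG for the E-box, TTATGTAA, TTACATAA or TTACGTAA for the D-box and TGACGTCA for the cAMP response element, and none of the matches shown overlaps another. Capitals mark the matches. Stretches are given on the gene's strand, for Ciart at chr3:95882258-95882478, minus strand, for Tef at chr15:81802423-81802672, plus strand, for Per3 at chr4:151044708-151044915, minus strand, and for Per1 at chr11:69098773-69098798, plus strand.
Ciart: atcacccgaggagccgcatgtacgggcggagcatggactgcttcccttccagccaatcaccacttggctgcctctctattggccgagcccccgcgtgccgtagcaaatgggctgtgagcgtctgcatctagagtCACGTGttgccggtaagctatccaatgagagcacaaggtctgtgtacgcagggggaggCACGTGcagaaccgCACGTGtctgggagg
Tef: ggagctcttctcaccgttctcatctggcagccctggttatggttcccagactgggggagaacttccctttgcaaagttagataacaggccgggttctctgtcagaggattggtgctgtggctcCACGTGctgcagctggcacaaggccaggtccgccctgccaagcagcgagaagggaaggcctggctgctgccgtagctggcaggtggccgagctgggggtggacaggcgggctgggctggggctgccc
Per3: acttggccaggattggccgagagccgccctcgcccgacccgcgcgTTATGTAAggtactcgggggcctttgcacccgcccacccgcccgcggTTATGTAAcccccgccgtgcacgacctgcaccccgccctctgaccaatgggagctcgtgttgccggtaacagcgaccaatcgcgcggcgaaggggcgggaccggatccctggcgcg
Per1: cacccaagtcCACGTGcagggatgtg
The Ciart window held 3 E-boxes, 116, 58 and 44 bases before the start. At least 1 E-box was found in 6.02% of 32851 mouse promoter windows of the same length, and 3 or more in 20 of them (0.0609%). Tef held 1 E-box 127 bases before the start of the entry shown, and its second entry held 1 at 138 bases. Per1 held 1 at 166 bases before the start of its first entry, inside the span annotated for the gene. Per3 held 2 D-boxes, 205 and 158 bases before the start, where 0.931% of windows held at least 1 and 0.0213% held 2 or more. Hlf held a cAMP response element 9 bases before its start, a motif found in 1.55% of windows. No match was found in the windows of Dbp, Usp2, Nr1d1 and Nr1d2, which says only that these letters are not in these windows. A match is a description of letters and not a binding site.

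Diet was tested first without choosing a pair of groups. The moderated F test of limma over the 5 diet groups passed an adjusted p of 0.05 for 8 of the 10 members in liver, where 8.7% of all genes passed. Hlf (adjusted p = 0.663) and Nr1d1 (adjusted p = 0.152) did not pass. In kidney 4 members passed, Per1, Per2, Nr1d2 (adjusted p = 0.0429) and Ciart, against 1.16% of all genes, and without kidney HCD+Gl-2 pool C none did. In brain no member passed, against 0.371% of all genes. None did at an unadjusted p of 0.05 either, where 2467 of 22080 genes did. The test of whether the diet effect itself differed between tissues passed for 6 members, Per1, Per2, Per3, Tef, Ciart and Usp2, where 3.02% of all genes passed, and for 3 without brain HCD+Gl-2 pool B.

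**Figure D1:**
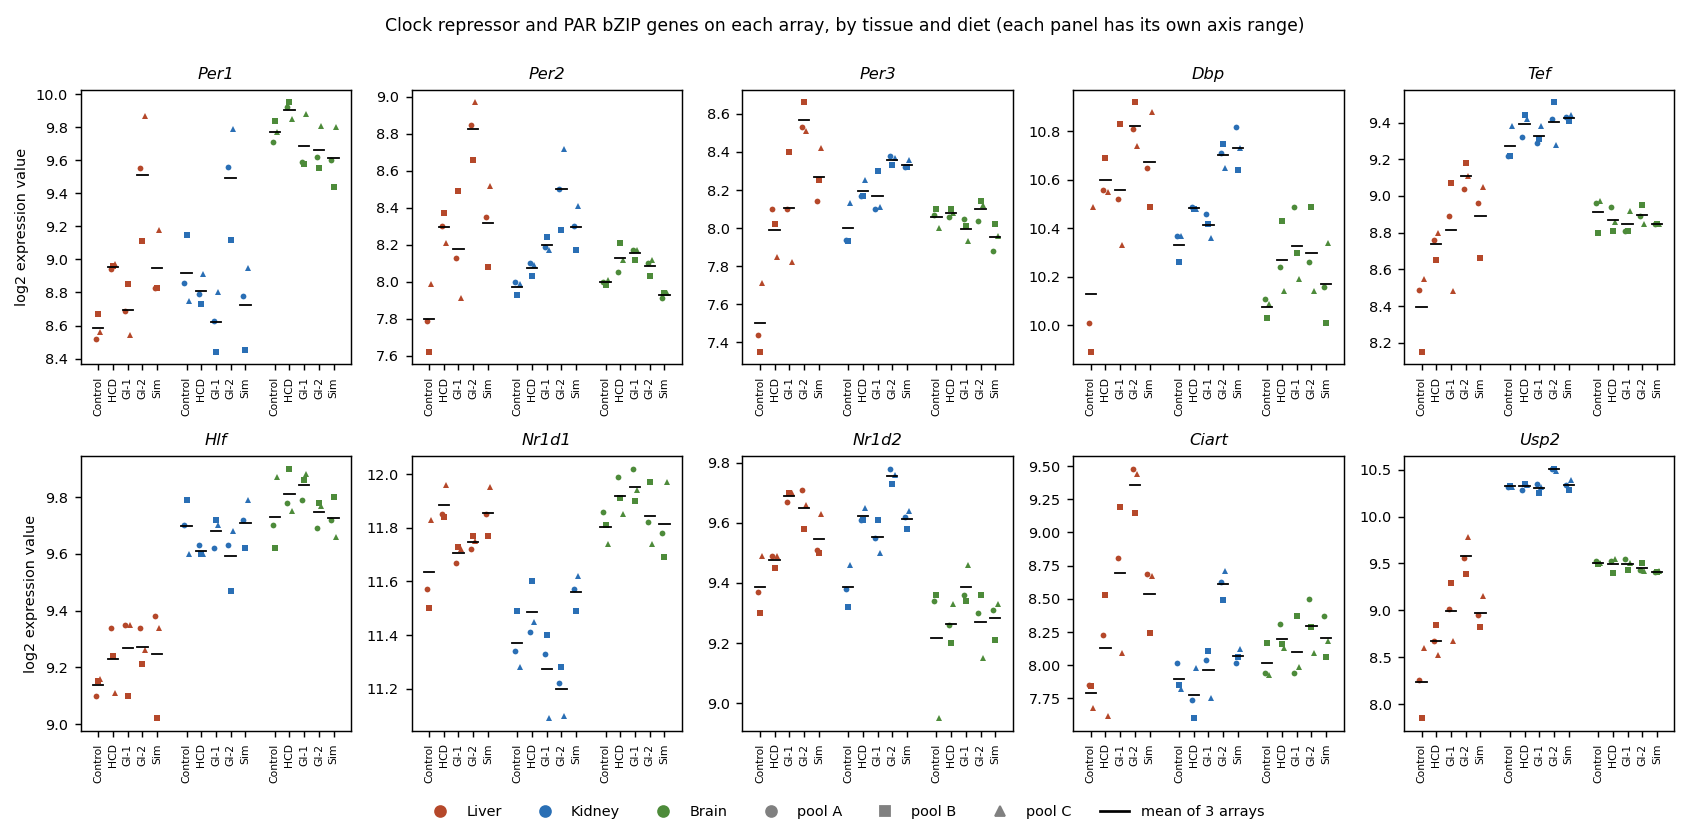
Log2 expression of each of the 10 genes on every array, with the 5 diet groups of liver, kidney and brain along the horizontal axis and an axis range of its own in each panel; points are the 3 pools of a group and the bar is their mean. In liver the Control means were the lowest of the 5 groups for all 10 genes, and Per1, Per2, Per3, Ciart and Usp2 were highest in HCD+Gl-2, whereas no such order of the groups ran through the brain values. No share over all genes is given for this order.

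The widest change was in the liver of mice on HCD+Gl-2. Against Control, 6 of the 10 members were differentially expressed (DE), taken as a log2 difference beyond 0.7 with an adjusted p no higher than 0.05, and all 6 were higher. These were Ciart, Usp2, Per3, Per2, Per1 and Tef, where 0.584% of all genes were DE. The median difference of the members was 0.82, against -0.01 over all genes. With no fold threshold 7 members passed, Dbp being added, where 2.86% of all genes passed. The liver Control mean was the lowest of the 5 groups for all 10 members, and the HCD+Gl-2 mean was the highest for 8. No share over all genes is given for this order, and members read on the same arrays are not independent.

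Among the Period genes, Per3 was 7.44, 7.35 and 7.71 in liver Control pools A, B and C and 8.53, 8.66 and 8.51 in HCD+Gl-2. The groups did not overlap, and the difference was 1.06 ± 0.1 (SE, n = 3 arrays per group, adjusted p = 1.06e-09). Per2 was 7.79, 7.62 and 7.99 in Control and 8.85, 8.66 and 8.97 in HCD+Gl-2, a rise of 1.03 ± 0.11 (adjusted p = 3.15e-08). For both genes all 3 HCD+Gl-2 arrays stood above each of the 12 other liver arrays. Per1 was 8.52, 8.67 and 8.56 in Control and 9.55, 9.11 and 9.87 in HCD+Gl-2, a rise of 0.92 ± 0.15 (adjusted p = 8.25e-05). Its 3 HCD+Gl-2 arrays were far apart, with pool B lowest and below the highest HCD+Sim array at 9.18. With pool B alone standing for HCD+Gl-2 the Per1 difference was 0.52 and no longer passed (adjusted p = 0.179), whereas Per2 and Per3 kept 0.86 and 1.16. Against Control pool C alone, Per1 (0.95), Per2 (0.84) and Per3 (0.86) all remained DE.

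Ciart moved furthest. It was 7.85, 7.84 and 7.68 in liver Control and 9.48, 9.15 and 9.44 in HCD+Gl-2, a rise of 1.57 ± 0.18 (95% interval 1.2 to 1.94, adjusted p = 2.37e-07), and against Control pool C alone it was 1.68. The groups in between were scattered, with HCD at 8.23, 8.53 and 7.62 and HCD+Gl-1 at 8.81, 9.19 and 8.09. Within those groups pool B was highest and pool C, the mix, lowest. Usp2, whose enzyme removes ubiquitin from clock proteins among others, was 8.26, 7.85 and 8.6 in Control and 9.56, 9.39 and 9.78 in HCD+Gl-2. The rise was 1.34 ± 0.12 (95% interval 1.1 to 1.58, adjusted p = 1.06e-09), and all 3 HCD+Gl-2 arrays lay above the 12 other liver arrays. Liver Control was itself uneven for Usp2, and against Control pool C alone the rise was 0.98.

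The PAR bZIP genes split. Tef was 8.49, 8.15 and 8.55 in liver Control and 9.04, 9.18 and 9.11 in HCD+Gl-2, a rise of 0.71 ± 0.1 (adjusted p = 1.26e-05). That value sits on the fold threshold, and it was 0.59 without Control pool B and 0.56 against Control pool C alone. Dbp was 10.01, 9.89 and 10.49 in Control and 10.81, 10.92 and 10.74 in HCD+Gl-2, a rise of 0.69 ± 0.12 (adjusted p = 0.000192) just under the threshold. The rise in Dbp was 0.87 without Control pool C and 0.33 against that pool alone, which did not pass (adjusted p = 0.313). With HCD+Gl-2 pool B alone Dbp was DE at 0.79 (adjusted p = 0.0109). Hlf ran from 9.02 to 9.38 over all 15 liver arrays, and its difference between HCD+Gl-2 and Control was 0.13 ± 0.08 (adjusted p = 0.498).

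The REV-ERB genes differed little. Nr1d1 was 11.57, 11.5 and 11.83 in liver Control and 11.72, 11.77 and 11.75 in HCD+Gl-2, overlapping groups with a difference of 0.11 ± 0.09 (adjusted p = 0.622). Its 95% interval, -0.06 to 0.29, leaves out a rise of the size seen in the Period genes. Nr1d2 was 9.37, 9.3 and 9.49 in Control and 9.71, 9.58 and 9.66 in HCD+Gl-2. These groups did not overlap, and the difference of 0.26 ± 0.07 missed the threshold, its adjusted p being just above 0.05.

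**Figure D2:**
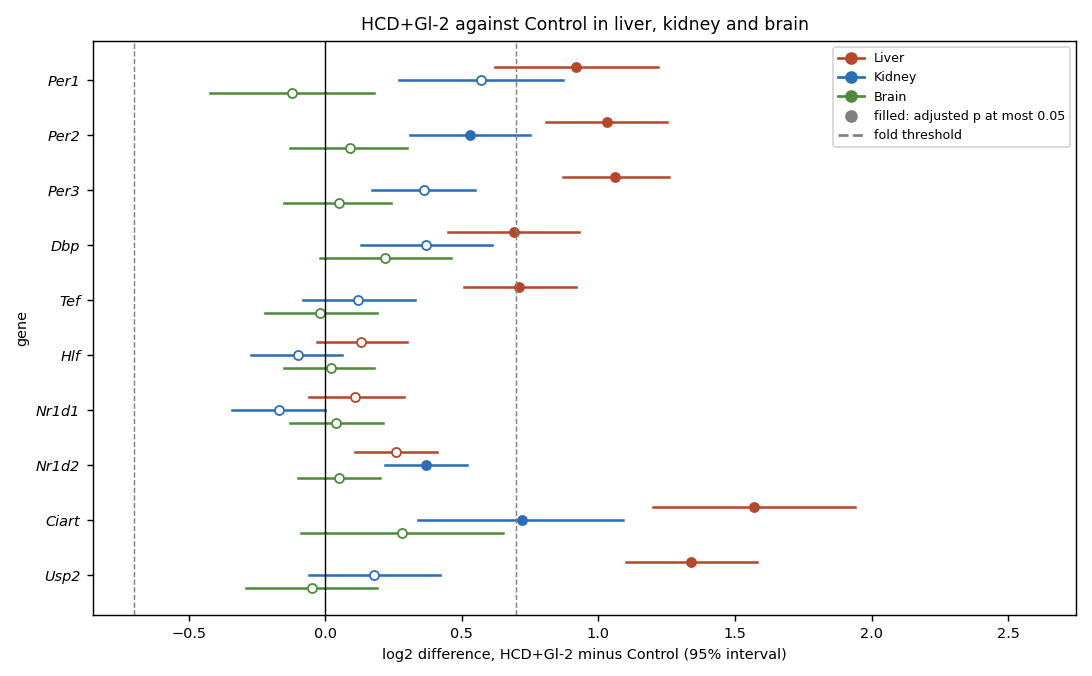
Difference between HCD+Gl-2 and Control on the log2 scale for each gene in liver, kidney and brain, with 95% intervals from the limma fit of 3 arrays per group; filled points have an adjusted p of at most 0.05 and the dashed lines mark the fold threshold of 0.7. In liver 6 genes lie above 0.7 with a filled point, from Tef at 0.71 to Ciart at 1.57, in kidney only Ciart at 0.72 does, and in brain none does.

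The cholesterol diet alone stood between Control and HCD+Gl-2. Against Control, no member was DE in liver HCD, where 0.245% of all genes were. At an unadjusted p under 0.05, 7 members passed, as did 2277 of 22080 genes. With no fold threshold 4 members were higher, against 1.34% of all genes: Per2 by 0.5 (adjusted p = 0.00873), Per3 by 0.49 (adjusted p = 0.00242), Dbp by 0.47 (adjusted p = 0.0317) and Usp2 by 0.44 (adjusted p = 0.0484). Against Control pool C alone none of the 4 passed, with Per2 at 0.31, Per3 at 0.28, Dbp at 0.11 and Usp2 at 0.08 (adjusted p from 0.381 to 0.894), and Usp2 was 0.25 without Control pool B. The 3 HCD arrays of Per2 were 8.3, 8.37 and 8.21 and those of Per3 were 8.1, 8.02 and 7.85, all above the Control arrays. Per1 was 8.94, 8.96 and 8.97 in HCD, above Control on every array, with a difference of 0.37 that did not pass (adjusted p = 0.3).

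Against HCD, the diet it shares its cholesterol with, HCD+Gl-2 had 2 members DE in liver, Ciart at 1.23 ± 0.18 (adjusted p = 6.97e-05) and Usp2 at 0.9 ± 0.12 (adjusted p = 1.83e-05), where 0.303% of all genes were DE. With no fold threshold 6 members passed, against 1.7% of all genes. Per3 was higher by 0.57 (adjusted p = 0.000315), Per1 by 0.55 (adjusted p = 0.0416), Per2 by 0.53 (adjusted p = 0.00354) and Tef by 0.37 (adjusted p = 0.0445). Dbp differed by 0.22 (adjusted p = 0.437) and Nr1d1 by -0.14. Ciart and Usp2 depended on the spread shared over all tissues: in a fit of the liver arrays alone both had an adjusted p of 0.0518. With pool B alone standing for HCD+Gl-2, Ciart was 1.02 (adjusted p = 0.058) and Usp2 0.71 (adjusted p = 0.0311), Per3 passed at 0.67, and Per1 (0.15), Per2 (0.37) and Tef (0.44) did not pass.

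Some of these members were also above Control with the other treatments. In liver HCD+Gl-1 against Control, Ciart (0.91, adjusted p = 0.00249) and Usp2 (0.75, adjusted p = 0.000114) were DE, where 0.322% of all genes were. Per3 was higher by 0.61, Dbp by 0.43, Tef by 0.42, Per2 by 0.38 and Nr1d2 by 0.3, all at adjusted p-values from 0.000104 to 0.0416 and under the fold threshold. With no fold threshold 791 of 22080 genes passed in this comparison. Against Control pool C alone these differences shrank, to 0.4 for Per3, 0.06 for Dbp, 0.27 for Tef, 0.19 for Per2 and 0.2 for Nr1d2. Both DE calls rested on single arrays: Ciart was 0.66 without HCD+Gl-1 pool B, and Usp2 was 0.6 without it, 0.56 without Control pool B and 0.39 against Control pool C alone. In HCD+Sim against Control, Per3 (0.77, adjusted p = 1.2e-06), Ciart (0.74, adjusted p = 0.0225) and Usp2 (0.74, adjusted p = 0.000143) were DE, where 0.358% of all genes were. Without Control pool B, Per3 was 0.69 and Usp2 0.54, without HCD+Sim pool C they were 0.7 and 0.65, each then short of the fold threshold, and Ciart lost its call when any Control pool, HCD+Sim pool A or HCD+Sim pool C was left out. Between Control pool C and HCD+Sim pool C, the pools with low squamous and pancreas markers, the Usp2 difference was 0.55 (adjusted p = 0.099) and the Ciart difference 0.99 (adjusted p = 0.138), neither passing, whereas Per3 passed at 0.71. In a fit of the liver arrays alone, the calls of Ciart and Usp2 ended in both HCD+Gl-1 and HCD+Sim (adjusted p from 0.084 to 0.331). These comparisons and the preceding ones share the Control arrays, so they are not independent.

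No member was DE in liver between HCD+Gl-1 and HCD, HCD+Sim and HCD, or HCD+Gl-1 and HCD+Sim, where 0.466% of all genes were DE in at least 1 of these 3. Without the fold threshold none passed either. At an unadjusted p under 0.05, 4, 3 and 0 members passed in turn, where 3663, 2588 and 4695 of 22080 genes did. The medians of the members there were 0.06, 0.07 and -0.1. Gl-2 stood above Gl-1 for Per1, at 0.81 (adjusted p = 0.00144), where 0.172% of all genes were DE in this comparison. Leaving out the fold threshold, 5 members passed, against 3.94% of all genes, the others being Per2 (0.65), Per3 (0.46), Ciart (0.66) and Usp2 (0.59). With HCD+Gl-2 pool B alone the differences from HCD+Gl-1 were 0.49 for Per2, 0.55 for Per3, 0.45 for Ciart and 0.4 for Usp2. Per1 in HCD+Gl-1 was 8.69, 8.85 and 8.54, all below the HCD+Gl-2 arrays, and the difference was 0.63 without HCD+Gl-2 pool C, 0.41 with pool B alone, and 0.81 with an adjusted p of 0.0983 in a fit of the liver arrays alone. Gl-2 stood above simvastatin for Ciart, at 0.82 (adjusted p = 0.012), where 0.285% of all genes were DE. Leaving out the fold threshold, 4 members passed, against 1.31% of all genes, the others being Usp2 (0.6), Per1 (0.56) and Per2 (0.51). With HCD+Gl-2 pool B alone the differences from HCD+Sim were 0.42 for Usp2, 0.16 for Per1 and 0.34 for Per2. The Ciart call ended when HCD+Gl-2 pool A, HCD+Gl-2 pool C or HCD+Sim pool B was left out, in fits of the liver arrays (adjusted p = 0.304) or the compared groups alone (adjusted p = 0.312), with HCD+Gl-2 pool B alone (0.62, adjusted p = 0.341) and with HCD+Sim pool C alone (0.69, adjusted p = 0.17).

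**Figure D3:**
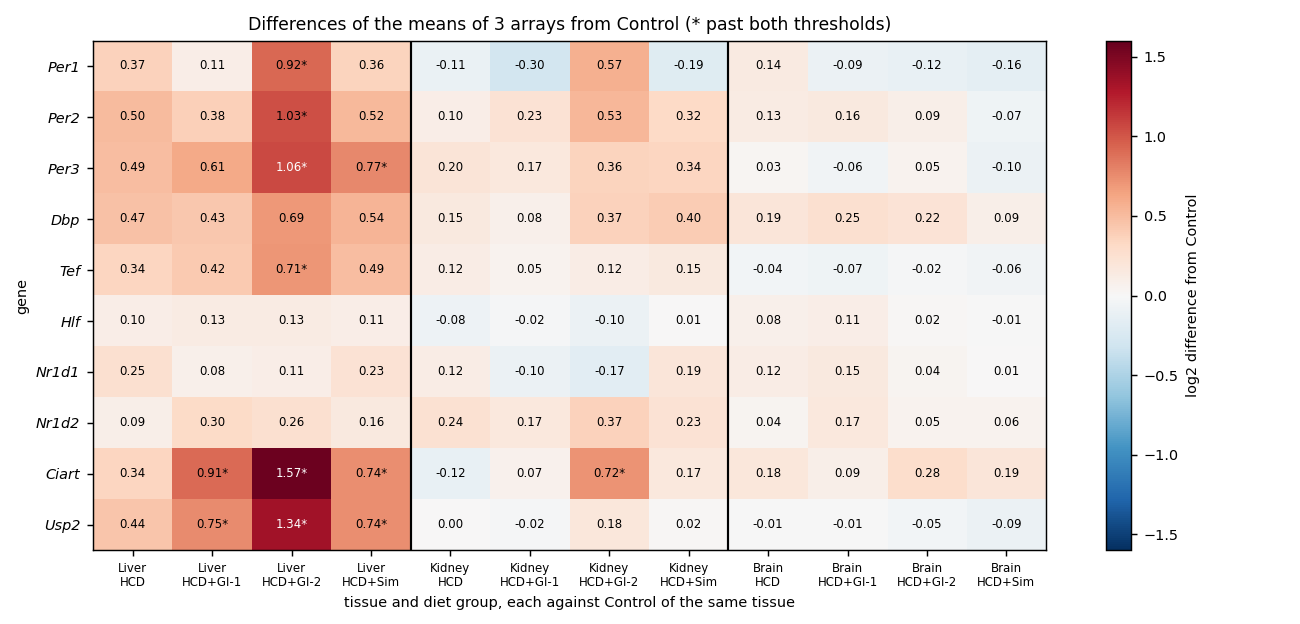
Difference of each treated group from Control on the log2 scale, for the 10 genes in liver, kidney and brain, as a colour map with the value in each cell and a star where both thresholds were passed. Liver holds the highest values, up to 1.57 for Ciart in HCD+Gl-2, whereas brain values for HCD+Gl-2 run from -0.12 to 0.28.

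In kidney every call of a member came from a comparison with HCD+Gl-2, and fewer members were called than in liver. Against Control 1 member was DE, Ciart, where 0.217% of all genes were. Ciart was 8.02, 7.85 and 7.82 in kidney Control and 8.63, 8.49 and 8.71 in HCD+Gl-2, groups that did not overlap. The difference was 0.72 ± 0.18 (adjusted p = 0.046), and it lost its call when any 1 of these 6 arrays was left out (adjusted p from 0.0817 to 0.222). Per2 was 8, 7.93 and 7.99 in Control and 8.5, 8.28 and 8.72 in HCD+Gl-2, higher by 0.53 ± 0.11 (adjusted p = 0.00565). Nr1d2 was 9.38, 9.32 and 9.46 in Control and 9.78, 9.73 and 9.76 in HCD+Gl-2, higher by 0.37 ± 0.07 (adjusted p = 0.00453). All HCD+Gl-2 arrays of Ciart, Nr1d2 and Usp2 stood above the 12 other kidney arrays. Of these genes, Usp2 differed from Control by only 0.18 and did not pass (adjusted p = 0.796). No share over all genes is given for such a separation, here or in liver.

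Per1 in kidney was 8.86, 9.15 and 8.75 in Control and 9.56, 9.12 and 9.79 in HCD+Gl-2. The groups overlapped at pool B, and the difference of 0.57 did not pass (adjusted p = 0.0512). Usp2 hardly spread in kidney. Its Control mean was 10.32 ± 0.01 (SD, n = 3) and its HCD+Gl-2 mean 10.5 ± 0.01, a difference of 0.18 that did not pass in the shared fit. Per3 (0.36, adjusted p = 0.0561), Dbp (0.37, adjusted p = 0.164) and Tef (0.12) did not pass in kidney either.

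Against HCD, kidney HCD+Gl-2 had Ciart DE at 0.84 (adjusted p = 0.00912), where 0.335% of all genes were DE, and Per1 was higher by 0.68 (adjusted p = 0.00913) and Per2 by 0.43 (adjusted p = 0.0379). The Ciart call ended without HCD pool A, HCD pool B or HCD+Gl-2 pool C. Per1 was DE between HCD+Gl-2 and HCD+Gl-1, at 0.86 (adjusted p = 0.000669), where 0.181% of all genes were. Per1 was also DE between HCD+Gl-2 and HCD+Sim, at 0.76 (adjusted p = 0.00409), where 0.222% of all genes were, and that call ended without HCD+Gl-2 pool C (0.61) or HCD+Sim pool B (0.62). Nr1d1 was lower there by a log2 difference of -0.36 (adjusted p = 0.0268). Nr1d1 was 11.22, 11.28 and 11.1 in kidney HCD+Gl-2 and 11.57, 11.49 and 11.62 in HCD+Sim. In the other 6 kidney comparisons no member was DE, where 0.199% of all genes were in at least 1 of them. In each of those 6, 1 to 5 members had an unadjusted p under 0.05, where 729 to 1366 of 22080 genes did.

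In brain no member was DE in any of the 10 comparisons, where 0.24% of all genes were in at least 1. None passed without the fold threshold. At an unadjusted p of 0.05, 2 members passed in HCD+Gl-1 against Control, where 2010 of 22080 genes did. In HCD+Gl-1 against HCD+Sim 1 passed, where 1788 genes did. None passed in the other 8, where 1213 to 3045 genes did. Brain values lay close together: Usp2 ran from 9.4 to 9.55, Tef from 8.8 to 8.97 and Per3 from 7.88 to 8.14 over 15 arrays. Per1 in brain was 9.77 ± 0.07 in Control and 9.66 ± 0.14 in HCD+Gl-2 (SD, n = 3), and its difference was -0.12 with a 95% interval of -0.43 to 0.18. The interval does not reach the rise measured in liver.

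The diet effects were then set against each other between tissues, with the difference of differences as the tested value. The tissues came from the same groups of mice, and the fit took all arrays as independent, here and for the tissue levels below. Over all genes, deviations from the group mean of same-letter arrays of other tissues on the same diet correlated from -0.13 to 0.14 (median 0.01, 45 pairs). Such values do not settle pairing for single members. For HCD+Gl-2 against Control, liver exceeded brain for 6 members, where 0.738% of all genes were DE. These were Usp2 (1.39, adjusted p = 4.33e-06), Ciart (1.29, adjusted p = 0.00433), Per1 (1.04, adjusted p = 0.0045), Per3 (1.02, adjusted p = 1.59e-05), Per2 (0.94, adjusted p = 0.000331) and Tef (0.73, adjusted p = 0.00375). Liver exceeded kidney for Usp2 (1.16, adjusted p = 8.42e-05) and Per3 (0.7, adjusted p = 0.0036), where 0.38% of all genes were DE. Tef missed only the fold threshold there, at 0.59 (adjusted p = 0.036). No member was DE between kidney and brain in this comparison, where 0.281% of all genes were. The largest difference was that of Per1, 0.69 (adjusted p = 0.142). At an unadjusted p under 0.05, 4 members passed, as did 2374 of 22080 genes. Against liver Control pool C alone the calls against brain remained for Usp2 (1.03), Ciart (1.4), Per1 (1.07), Per3 (0.81) and Per2 (0.75) and ended for Tef (0.58, adjusted p = 0.0598), and against kidney the call remained for Usp2 (0.8) and ended for Per3 (0.5, adjusted p = 0.196). With liver HCD+Gl-2 pool B alone, the calls against brain ended for Per1 (0.64, adjusted p = 0.15) and Ciart (1.08, adjusted p = 0.0782). The Tef call against brain also ended without liver Control pool B, liver HCD+Gl-2 pool B or brain Control pool C, and the Per3 call against kidney without liver Control pool A or B, liver HCD+Gl-2 pool B, kidney Control pool C or kidney HCD+Gl-2 pool B.

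For HCD+Gl-2 against HCD, the liver effect exceeded the brain effect for Ciart (1.14) and Usp2 (0.94), where 0.276% of all genes were DE. It exceeded the kidney effect for Usp2 (0.71), where 0.326% were. Per1 was the member in which kidney exceeded brain, at 0.93 (adjusted p = 0.0216), where 0.326% of all genes were DE. For HCD+Gl-1 against Control, the effect on Usp2 was larger in liver than in kidney by 0.77, where 0.118% of all genes were DE, and larger than in brain by 0.76, where 0.276% were. For HCD+Sim against Control, Usp2 again exceeded kidney by 0.72, where 0.254% of all genes were DE. Usp2 exceeded brain by 0.83 and Per3 by 0.87, where 0.258% were. Most of these calls depended on single arrays. For Usp2 in HCD+Gl-1 against Control, liver Control pool C alone gave 0.41 against kidney (adjusted p = 0.365) and 0.4 against brain (adjusted p = 0.242), and for HCD+Sim, with pool C alone in both liver groups, 0.53 (adjusted p = 0.21) and 0.64 (adjusted p = 0.129). Each of these values compares 12 arrays. The Usp2 call against kidney ended in HCD+Gl-1 against Control when any of the 12 but liver Control pool C and liver HCD+Gl-1 pool C was left out. In HCD+Gl-2 against HCD it ended without any but liver HCD pool B and liver HCD+Gl-2 pool B, and in HCD+Sim against Control without any but liver Control pool C, liver HCD+Sim pool B and kidney HCD+Sim pool C. The Usp2 call against brain ended without liver Control pool B for HCD+Gl-1 and HCD+Sim, and without liver HCD+Gl-1 pool B for HCD+Gl-1. With liver HCD+Gl-2 pool B alone the calls against HCD ended for Usp2 against kidney (0.53) and brain (0.75) and for Ciart against brain (0.93). That Ciart call also ended without liver HCD pool C, liver HCD+Gl-2 pool A or C, brain HCD pool A or C, or brain HCD+Gl-2 pool B or C. The Per1 call between kidney and brain ended, at an adjusted p of up to 0.155, without any of its 12 arrays but kidney HCD pool C, kidney HCD+Gl-2 pool B, brain HCD pool C and brain HCD+Gl-2 pool C. The Per3 call in HCD+Sim remained with pool C alone (0.82, adjusted p = 0.0352) and without any 1 array.

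Levels also differed between tissues whatever the diet. Averaged over the 5 diets, Usp2 was highest in kidney at 10.36, lower in brain at 9.47 and lowest in liver at 8.89. The liver value was below kidney by a log2 difference of -1.47 (adjusted p = 2.26e-25), the only member DE there, where 16.5% of all genes were. With no fold threshold 6 members differed, against 76.6% of all genes, which is not above the background. The size of the Usp2 gap moved with diet, from -2.09 in Control and -1.64 in HCD to -0.93 in HCD+Gl-2. Against brain the gap was -1.27 in Control and 0.12 in HCD+Gl-2, with a 95% interval of -0.12 to 0.36 (adjusted p = 0.357).

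Per1 was highest in brain at 9.73, and liver and kidney, at 8.94 and 8.91, did not differ beyond their spread (adjusted p = 0.73). Liver was below brain by -0.79 (adjusted p = 7.41e-14), the only member DE there, where 32.4% of all genes were. On the Control diet the gap was -1.19 and on HCD+Gl-2 it was -0.15 (adjusted p = 0.377). With no fold threshold 8 members differed between liver and brain, against 88% of all genes. Between kidney and brain, Per1 (-0.81) and Usp2 (0.89) were DE, where 30% of all genes were, and 9 members passed without the fold threshold, against 77%. With the fold threshold, shares of members called between tissues were therefore not above those of all genes for any pair of tissues.

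Tef was highest in kidney at 9.36, with brain at 8.87 and liver at 8.79 not passing the test (adjusted p = 0.0757). Its liver gap to kidney was -0.88 in Control and -0.29 in HCD+Gl-2. Hlf was highest in brain at 9.77, then kidney at 9.66, then liver at 9.23, each step passing the test. Nr1d1 was lowest in kidney at 11.38, with liver at 11.77 and brain at 11.87. After renewed quantile normalization the Nr1d1 difference was -0.47 for liver against brain, from -0.1, and -0.74 for kidney against brain, from -0.49, which is then DE. For Per2, Dbp and Nr1d2, liver and kidney did not differ beyond their spread and brain was lower than both. Ciart was highest in liver at 8.5, and kidney and brain, at 8.06 and 8.16, did not differ beyond their spread. On the Control diet alone its liver value was not above kidney (-0.11, adjusted p = 0.659). Per3 was highest in kidney, with -0.12 for liver against kidney and 0.17 for kidney against brain.

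The other clock genes were read in the same comparison, liver HCD+Gl-2 against Control. Of 5 activators and genes of opposite phase, 2 were DE and both were lower: Npas2 by a log2 difference of -1.44 (adjusted p = 2.49e-06) and Arntl by -0.99 (adjusted p = 4.06e-09). The median of the 5 was -0.44. Clock was lower by -0.44 (adjusted p = 0.00419), under the fold threshold, and Cry1 (0.08) and Nfil3 (-0.28) did not pass. In kidney Npas2 was DE at -1.01 (adjusted p = 0.00162) and Arntl differed by -0.54 (adjusted p = 0.000616). In brain none of the 5 was DE in the limma fit, with differences from -0.26 to 0.2 and 2 at an unadjusted p under 0.05.

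In liver, the means of the members and of this list differed in opposite directions between Control and HCD+Gl-2. With each gene centred on its liver mean, the mean of the 10 members was -0.42, -0.53 and -0.25 in Control and 0.4, 0.3 and 0.45 in HCD+Gl-2. The opposite-phase mean was 0.41, 0.29 and 0.37 in Control and -0.25, -0.36 and -0.16 in HCD+Gl-2. Within each of these groups the opposition did not hold array by array, since pool B was lowest for both means. For the members, HCD, HCD+Gl-1 and HCD+Sim arrays lay between, from -0.2 to 0.22. Their opposite-phase means ran from -0.25 to 0.06, and HCD+Gl-1 pool B, at -0.25, lay within the HCD+Gl-2 values.

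**Figure D4:**
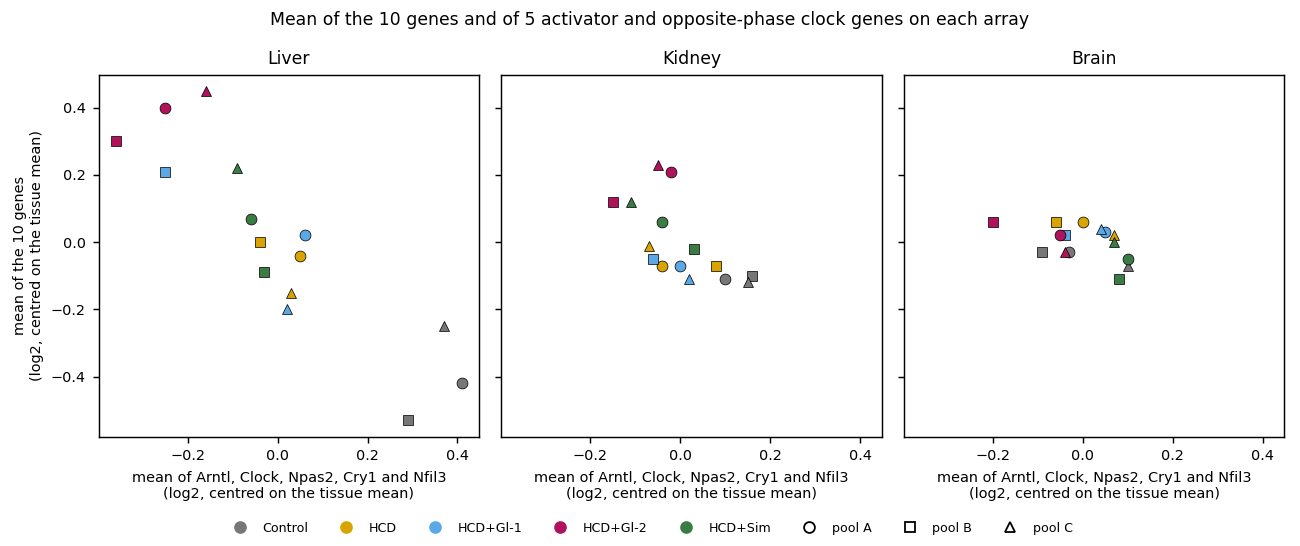
Mean of the 10 members (vertical) against the mean of the 5 activators and opposite-phase genes (horizontal) on each array, both as log2 values centred per gene within a tissue; colours mark the diet group, shapes the pool and panels the tissue. The 3 liver Control arrays lie at member means of -0.53 to -0.25 and the 3 liver HCD+Gl-2 arrays at 0.3 to 0.45, and their opposite-phase means are 0.29 to 0.41 and -0.36 to -0.16 in turn.

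Of 14 known clock output genes in liver, 4 were DE and higher, Klf10 (1.23), the cell cycle kinase Wee1 (1.09), the cytochrome P450 reductase Por (0.89) and the heme synthesis enzyme Alas1 (0.83). A further 2 were DE and lower, the sterol regulator Insig2 (-0.81) and the fatty acid elongase Elovl3 (-0.77). The median of the 14 was 0.34. Of 13 other clock factors 1 was DE in liver, the repressor Bhlhe41 (0.9, adjusted p = 0.00273), and 1 in kidney, its relative Bhlhe40 (0.71, adjusted p = 0.00101). None of 4 glucocorticoid-responsive genes was DE in liver, with a median of 0.26 and 2 at an unadjusted p under 0.05, and Zbtb16 was in kidney (0.76, adjusted p = 0.0417). Of 8 fasting-response genes, Pdk4, which restrains glucose oxidation, was DE and lower in liver (-0.84, adjusted p = 0.00243), and none was in kidney, where 2 had an unadjusted p under 0.05.

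Per1 and Per2 are also rapid-response genes, so 12 immediate early genes were read beside them. In HCD+Gl-2 against Control, 10 of the 12 were DE and higher in liver (median 1.22), 11 in kidney (median 1.53) and none in brain (median 0.08), where 1 had an unadjusted p under 0.05. In kidney Egr1 was higher by 4.01, Nr4a1 by 3.56 and Fos by 2.73. Their centred mean on the liver HCD+Gl-2 arrays was 1.23 in pool A, -0.13 in pool B and 1.68 in pool C, where the other liver arrays ran from -0.38 to 0.12. Per1 on the same arrays was 9.55, 9.11 and 9.87, in the same order. In kidney HCD+Gl-2 the centred mean was 1.58, 1.21 and 1.66 and Per1 was 9.56, 9.12 and 9.79. Per2 and Usp2 in liver had that order too, at 8.85, 8.66 and 8.97 and at 9.56, 9.39 and 9.78. Per3 and Tef did not follow that order in liver, being 8.53, 8.66 and 8.51 and 9.04, 9.18 and 9.11, highest in pool B. In some other groups too, Per1 was highest in pool C and lowest in pool B. In kidney HCD+Sim it was 8.78, 8.45 and 8.95, beside immediate early means of -0.27, -0.07 and -0.35. In liver HCD+Gl-1 Per1 had another order, 8.69, 8.85 and 8.54, beside -0.28, -0.27 and -0.35. The part of the immediate early response in the Per1 values was not tested beyond these values and the difference with pool B alone.

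**Figure D5:**
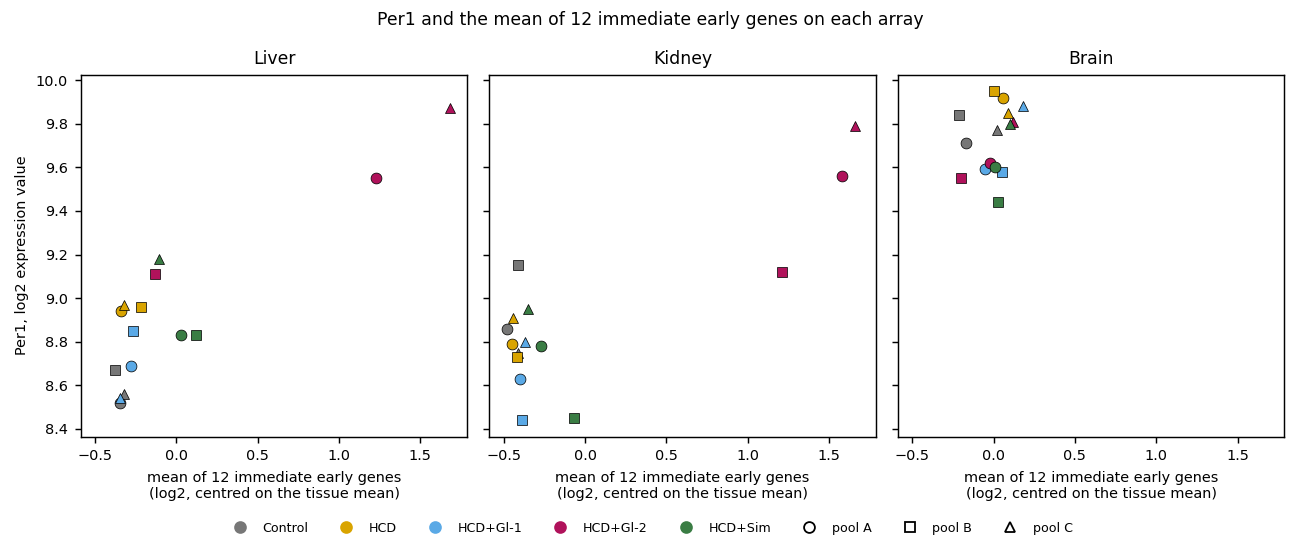
Log2 expression of Per1 (vertical) against the mean of 12 immediate early genes centred within each tissue (horizontal), 1 point per array, coloured by diet and shaped by pool, with a panel per tissue. In liver the HCD+Gl-2 pools A and C lie at the upper right with Per1 at 9.55 and 9.87 and pool B at 9.11 with an immediate early mean of -0.13, and in kidney all 3 HCD+Gl-2 arrays lie at 1.21 or above.

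As a description over the 15 liver arrays, which share the diet groups, each member's correlation with the mean of the other 9 was 0.97 for Usp2, 0.96 for Per2, 0.94 for Per3, 0.92 for Tef, 0.89 for Dbp, 0.86 for Ciart, 0.77 for Per1, 0.72 for Nr1d2, 0.37 for Hlf and 0.35 for Nr1d1. In kidney these values ran from -0.3 for Nr1d1 and -0.16 for Hlf to 0.87 for Per2, and in brain from -0.09 to 0.76. Outside the members, the genes whose liver pattern was most like their mean were Clmn, Mtss1 and Wee1 (each r = 0.93), Homer2 (0.92) and Por (0.91). In kidney they were Mylip and Slc20a1 (0.92), Plau (0.91), Hspa8 (0.9) and Aacs (0.89), and in brain Rsu1 (0.94), Aldh5a1 (0.92), Atp6v0c (0.89), Abhd4 and Isyna1 (0.88). No gene appeared in more than 1 of these lists of 5.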

How the data were processed

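The authors hybridised pooled RNA to mouse whole-transcript arrays and deposited log2 expression values, made by RMA background correction, quantile normalization and ComBat batch adjustment, with the probe set of highest interquartile range kept per gene. The ComBat batches are not given in the sources used here, so how far adjustment moved a group is unknown. Values are relative brightness, and levels are compared for the same probe set only. Groups followed the labels. From these values, 15 group means were fitted to all 45 arrays with lmFit and eBayes of limma 3.58.1 (R 4.3.3), and p-values were adjusted by Benjamini-Hochberg over 22080 genes in each contrast. Genes were called DE where the log2 difference exceeded 0.7 in size and the adjusted p did not exceed 0.05. Standard errors and 95% intervals come from this fit. Members and gene lists were chosen with earlier results of these data known, and 1 gene of the opposite-phase list is not reported here. All members are named, other listed genes only where DE or as stated, and 5 genes of highest likeness per tissue. The number of arrays limits precision: an exact permutation test of 3 against 3 cannot go below a two-sided p of 0.1. The code was tested on simulated data. Figures were drawn with matplotlib 3.10.9. Alternatives tried were fits of 1 tissue or 2 groups, pools A and B alone, renewed quantile normalization, a trended robust fit, a filter on dim genes, no fold threshold, a replicate block and leaving out each array. Using only pool C of liver Control and HCD+Sim, or only liver HCD+Gl-2 pool B, was added after seeing the data. Liver Control pool C was low for squamous markers but not for skeletal muscle markers.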

Additional observations from a re-analysis of the deposited data

Results flagged for a closer look

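The effects below differed between tissues by a contrast of differences in limma, each DE after adjustment over 22080 genes. Several lost the call when 1 array was left out, as given with the comparison of tissues: Usp2 against kidney in all but HCD+Gl-2 against Control, Usp2 against brain in HCD+Gl-1 and HCD+Sim, Per3 against kidney, Tef against brain, and Ciart against brain and Per1 between kidney and brain in HCD+Gl-2 against HCD. Among 3 arrays per group no single array was tested for standing apart. For liver against kidney, the difference of the effect was 0.77 for Usp2 in HCD+Gl-1 against Control, 0.7 for Per3 and 1.16 for Usp2 in HCD+Gl-2 against Control, 0.72 for Usp2 in HCD+Sim against Control and 0.71 for Usp2 in HCD+Gl-2 against HCD.

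For liver against brain, it was 0.76 for Usp2 in HCD+Gl-1 against Control. In HCD+Gl-2 against Control it was 1.04 for Per1, 0.94 for Per2, 1.02 for Per3, 0.73 for Tef, 1.29 for Ciart and 1.39 for Usp2. In HCD+Sim against Control it was 0.87 for Per3 and 0.83 for Usp2. In HCD+Gl-2 against HCD it was 1.14 for Ciart and 0.94 for Usp2. For kidney against brain, it was 0.93 for Per1 in HCD+Gl-2 against HCD.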

How the results depend on the processing

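Counts of members called in liver HCD+Gl-2 against Control stayed within 1.5 times of 6 under every alternative run, with 5 against Control pool C alone and 6 with HCD+Gl-2 pool B alone. Other counts moved. In a fit of 1 tissue, the liver F test called 5 members, HCD+Gl-1 against Control 0, HCD+Gl-2 against HCD 0 and HCD+Sim against Control 1. In a fit of the compared groups alone, HCD+Gl-1 against Control, HCD+Gl-2 against HCD and HCD+Sim against Control each called 0. With pools A and B alone, liver HCD against Control called 1, HCD+Gl-1 against Control 4 and kidney HCD+Gl-2 against Control 0. Kidney HCD+Gl-2 against Control also called 0 after renewed quantile normalization and with the trended robust fit. Without the fold threshold, liver HCD against Control called 4, HCD+Gl-1 against Control 7, HCD+Gl-2 against HCD 6, HCD+Sim against Control 6, kidney HCD+Gl-2 against Control 3 and against HCD 3, liver against kidney 6, liver against brain 8 and kidney against brain 9. Of 22080 genes, 296, 791, 375, 341, 193, 220, 16924, 19423 and 16994 passed in these comparisons in turn. With liver HCD+Gl-2 pool B alone, HCD+Gl-2 against HCD called 1. With pool C alone for liver Control and HCD+Sim, HCD+Gl-1 against Control called 1 and HCD+Sim against Control 1.

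On leaving out each array in turn, the interaction test ran from 3 (without brain HCD+Gl-2 pool B) to 6, the kidney F test from 0 (without kidney HCD+Gl-2 pool C) to 4, kidney HCD+Gl-2 against Control from 0 to 1 and against HCD from 0 to 2, liver HCD+Gl-1 against Control from 0 (without HCD+Gl-1 pool B) to 3 and against HCD from 0 to 1, and liver HCD+Sim against Control from 0 (without Control pool B or HCD+Sim pool C) to 3. Single calls also depended on 1 array: Tef in liver HCD+Gl-2 against Control was 0.59 without Control pool B and 0.68 without HCD+Gl-2 pool B, and Ciart in HCD+Sim against Control lost its call without any Control pool, HCD+Sim pool A or pool C (adjusted p from 0.0578 to 0.115). Differences near 0 changed sign without a call, all at an adjusted p of 0.446 or more. Those were Dbp between liver and kidney (-0.02, -0.01 and 0), Per1 between liver and kidney (-0.01, 0 and -0.05, up to 0.07), Nr1d2 between liver and kidney (0), Hlf in kidney HCD+Gl-2 against HCD (from -0.06 to 0.05) and in liver (-0.02 to 0.09), Tef in kidney HCD+Gl-2 against HCD (-0.03, 0 and -0.05, up to 0.07) and Nr1d1 in liver HCD+Gl-2 against Control (-0.09). Pools A and B alone ended the calls between tissues in HCD+Gl-2 against HCD for Ciart against brain (0.77) and Usp2 against kidney (0.52). The cause was not tested. Uncalled members in brain were not recomputed singly.

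Pool letters were also tried as a replicate block. Deviations of same-letter pools of other diets in the same tissue correlated from -0.38 to 0.42 (median 0.04), over 0.1 in 22 of 90 pairs. For pools of other letters they ran from -0.46 to 0.42 (median -0.01), over 0.1 in 24 of 180. These values show no firm pairing by letter and cannot exclude a weak one. With the block, 6 members were called in liver HCD+Gl-2 against Control, 8 in the liver F test, 3 in the kidney F test and 5 in the interaction test, where Nr1d2 (adjusted p = 0.0505) and Tef (adjusted p = 0.0568) lost their F-test calls in turn. No member's call in a comparison of groups or tissues changed with the block.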

Other observations

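Pool C was made by mixing pools A and B, so its value would lie between theirs if arrays had no error. For the members it lay between them in 37 of 150 gene and group sets, 10 of 50 in liver, 12 of 50 in kidney and 15 of 50 in brain. Over all genes the share was 20.4% to 35.5% by group. Among members, Ciart in liver HCD+Gl-1 was 8.81 and 9.19 in pools A and B and 8.09 in pool C. The median over members of pool C minus the mean of A and B was -0.37 in that group. It was 0.26 in liver Control, 0.23 in HCD+Sim, -0.11 in HCD and 0 in HCD+Gl-2. In kidney and brain groups it ran from -0.06 to 0.08. Liver comparisons with pool C alone carry this shift, and its cause was not tested.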
